A study of Mus musculus with 10 samples.

Results

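The genes described here are the amino acid transporter families of C2C12 myoblasts, chosen by name alone as the protein-coding genes of the Slc1, Slc3, Slc6, Slc7, Slc36, Slc38 and Slc43 families, with the creatine transporter Slc6a8 left out. The rule gave 61 of the 22026 protein-coding genes in the table, which holds 35275 genes in all. Of these, 60 code for a transporter or a transporter subunit, and the remaining gene, Slc7a6os, takes its name from its place beside Slc7a6 on the opposite strand. Enough reads to be tested were counted for 30 of the 61 genes. Slc7a6os is among the 30 and is included where transporter or family genes are counted by call or spread, but not in the summed levels.

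C2C12 is a clonal line of mouse myoblasts whose cells proliferate in rich medium and, once serum is lowered, leave the cell cycle and fuse to myotubes. The study sequenced RNA in 5 libraries of cells before differentiation, kept in growth medium, and in 5 libraries of cells on day 6 of differentiation, kept in medium with horse serum. No transgene or drug is named for either condition. Whether replicates were grown as separate cultures is not given by the labels, so p-values reflect only how far these libraries differ, which may be technical. Serum, medium and time in culture changed together with differentiation and cannot be told apart from it here.

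Amino acids cross the plasma membrane through carriers that differ in substrate and in driving force. Sodium-coupled carriers of the Slc1, Slc6 and Slc38 families load cells against a gradient, exchangers such as LAT1 (Slc7a5) then trade glutamine for leucine and other large neutral amino acids, and the heavy chain 4F2hc (Slc3a2) brings LAT1 and its relatives to the cell surface. Leucine and arginine are signals to the kinase complex mTORC1, which drives protein synthesis, and cells short of amino acids raise several carriers through the transcription factor ATF4.

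The counts of a library summed to between 16288532 and 21622527 before differentiation and between 15367909 and 20509280 on day 6. Of 9 muscle markers, 8 were higher on day 6 and 1, Myf5, was lower, and 5 of 5 markers of dividing cells were lower. Markers of other cell types were low next to muscle markers: summed over each list, adipocyte markers reached at most 0.242 CPM, neuron and glia markers 0.700 CPM, endothelial markers 0.646 CPM, macrophage and blood markers 3.07 CPM, epithelial markers 4.80 CPM and osteoblast markers 7.68 CPM. The osteoblast sum went from 1.48 to 3.23 CPM before differentiation to 4.84 to 7.68 CPM on day 6, with Bglap2 higher (3.94 log2, adjusted p = 9.26e-10), Sp7 lower, Dmp1 not passed and Ibsp at 0. The epithelial sum went from 0.323 to 1.13 CPM to 2.56 to 4.80 CPM, with Cdh1 higher (4.11 log2, adjusted p = 5.81e-09) and Epcam at 0. Their part in the results was not tested. CPM stands for counts per 1000000 of the library total after TMM scaling. Within day 6, replicates 1 and 2 stood apart from replicates 3, 4 and 5 for many of the genes below. Values without either set are given for most named genes whose call or direction changes, though not for Trib3 or Slc6a15. The sets were chosen with this split already known, so p-values without either set describe the split and do not test a direction of change.

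On day 6, 18 of the 30 tested genes were higher than before differentiation, 7 were lower and 5 did not pass the test (edgeR's quasi-likelihood test, adjusted p under 0.05 over 13085 genes). Of all genes tested, 40.1% were higher and 39.7% were lower, so the transporter families had more higher calls, 60% of their tested genes, and fewer lower calls, 23.3%. The call of a change in either direction was about as frequent, at 83.3% of the transporter genes against 79.8% of all genes. A rise of more than 1 log2 was called for 13 transporter genes (43.3%) against 18.1% of all genes, and a fall of that size for 2 (6.67%) against 14.7%. Taken in both directions, 15 genes (50%) passed that limit, against 32.8% of all genes. The median log2 fold change was 0.67 over the 30 genes, also with Slc6a19 set at its lower bound, and 0.01 over all genes tested. The 5 values of one condition lay wholly apart from those of the other for 26 of the 30 genes (86.7%) against 69.1% of all genes. Of the 18 higher genes, 6 (Slc7a7, Slc7a15, Slc7a4, Slc6a2, Slc6a7 and Slc6a19) passed the filter on low counts only through day 6, and no transporter gene passed it only through the libraries before differentiation. Of the 24 genes that passed through both conditions, 12 were higher (50%) and 7 lower (29.2%), against 38.2% and 42.2% of the 11377 such genes in the table. The 6 genes that passed only through day 6 are all among the 13 with a rise of more than 1 log2. They are also among the 26 whose conditions lay apart. The counts past 1 log2, the median and the count of 26 were not repeated without them, so nothing is drawn from their excess. In bulk RNA, fewer cells of a type and less RNA per cell cannot be told apart.

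**Figure D1:**
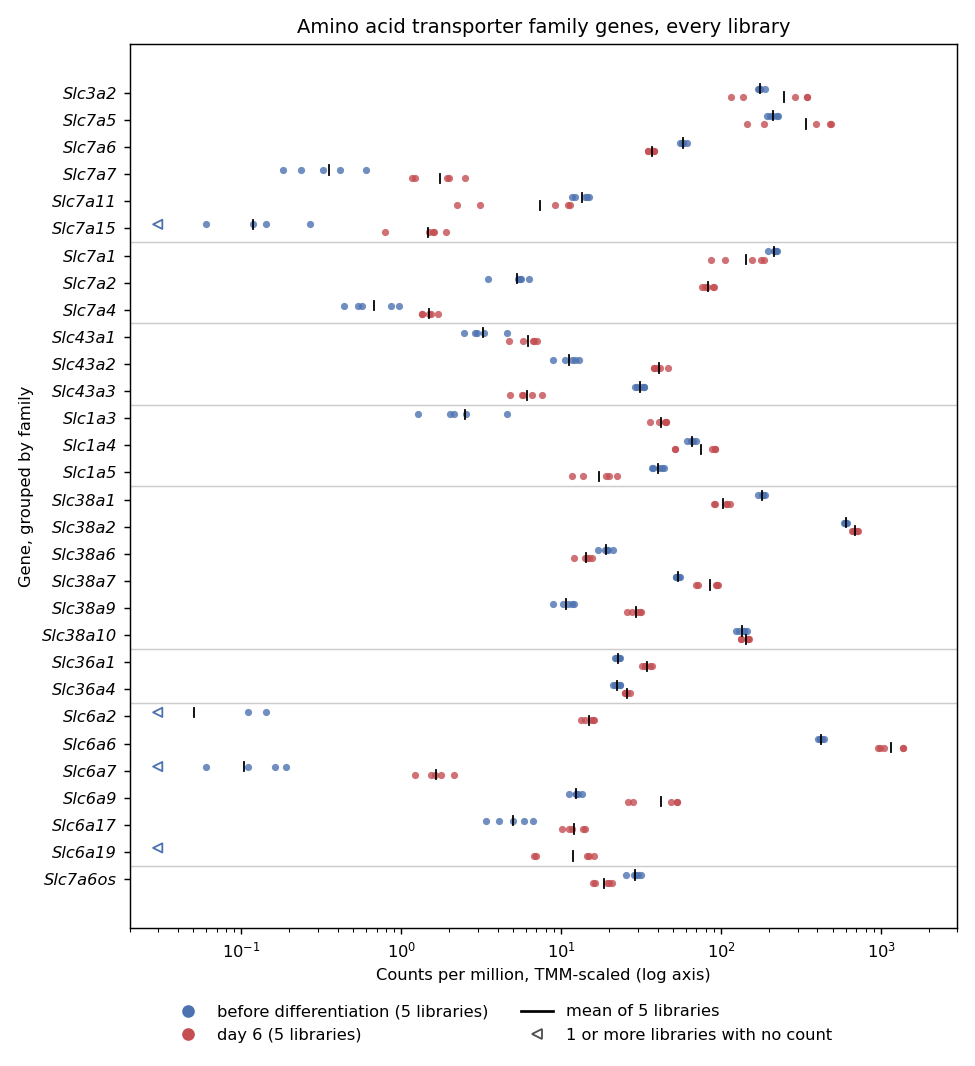
Level of the 30 tested genes in each of the 10 libraries, on a log scale of CPM, with 1 point per library and the conditions in separate colours. Slc6a6 and Slc38a2 lie highest in both conditions, and Slc7a2, Slc1a3, Slc6a2 and Slc6a19 show the widest separation between conditions.

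LAT1 and its heavy chain were among the most abundant transcripts of the families, and neither passed the test. Their levels differed about 3-fold between day 6 libraries. Slc3a2 (chr19:8706882-8723369, mm10) measured 173, 175, 174, 171 and 188 CPM in replicates 1 to 5 before differentiation. On day 6 it measured 115, 138, 346, 342 and 290.2 CPM. Replicates 1 and 2 of day 6 thus lay below every library before differentiation and replicates 3, 4 and 5 above every one (176 ± 6.97 CPM before and 246 ± 112 CPM on day 6, SD, n = 5; log2 fold change 0.48, SE 0.322, adjusted p = 0.199, edgeR).

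Slc7a5 (chr8:121881150-121907694), the light chain that carries leucine, measured 201, 195, 223, 225 and 209.9 CPM before differentiation. The day 6 libraries measured 145, 186, 489, 481 and 393 CPM. The order was the same as for the heavy chain, with replicates 1 and 2 below and replicates 3, 4 and 5 above all libraries before differentiation (211 ± 13.5 CPM before and 339 ± 163 CPM on day 6; log2 fold change 0.68, SE 0.347, adjusted p = 0.1, edgeR). Without day 6 replicates 1 and 2 both genes were higher, by 0.90 log2 for Slc3a2 (adjusted p = 1.50e-17) and 1.12 for Slc7a5 (adjusted p = 2.05e-12). Without day 6 replicates 3, 4 and 5 both were lower, with log2 fold changes of -0.44 for Slc3a2 (adjusted p = 4.52e-07) and -0.31 for Slc7a5 (adjusted p = 0.00174). Because the sets were chosen with the split known, these p-values are no test of a rise or a fall. Leaving out day 6 replicate 1 alone made both pass, at 0.67 (adjusted p = 0.0404) and 0.88 (adjusted p = 0.0160), and leaving out replicate 2 made Slc7a5 pass at 0.86 (adjusted p = 0.0419).

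The light chain y+LAT2 was lower and xCT did not pass. Slc7a6, which codes for y+LAT2, an exchanger of cationic for neutral amino acids, measured 55, 57, 58, 57.6 and 60.9 CPM before differentiation. It measured 38.3, 37.7, 34.8, 34.7 and 38.2 CPM on day 6 and was lower in all 5 libraries, with no gap between replicates 1 and 2 and the rest (57.7 ± 2.15 CPM before and 36.7 ± 1.81 CPM on day 6; log2 fold change -0.65, SE 0.0562, adjusted p = 5.71e-09, edgeR). The cystine and glutamate exchanger xCT, Slc7a11 (chr3:50364936-50443613), falls outside the rule for full values and was chosen after its values were seen. It measured 11.7, 14, 12.2, 14.6 and 15 CPM before differentiation.

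On day 6, Slc7a11 measured 2.23, 3.1, 9.14, 11.4 and 11 CPM, below every library before differentiation, and yet the fall did not pass the test (log2 fold change -0.90, SE 0.415, adjusted p = 0.0737, edgeR). Its day 6 libraries spanned 5.13-fold, the widest range among the family genes with at least 5 CPM in both conditions. It passed without day 6 replicate 4 at -1.11 (adjusted p = 0.0435), without replicates 1 and 2 at -0.34 (adjusted p = 0.00978) and without replicates 3, 4 and 5 at -2.30 (adjusted p = 1.14e-12).

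Slc7a7, which codes for y+LAT1, and Slc7a15, a light chain relative, rose from low levels. Slc7a7 measured 0.603, 0.323, 0.236, 0.181 and 0.415 CPM before differentiation and 1.93, 1.98, 2.5, 1.16 and 1.23 CPM on day 6 (log2 fold change 2.31, SE 0.356, adjusted p = 1.06e-05, edgeR). Its span overlaps Oxa1l on the opposite strand, which held 9742 counts over all libraries against 187 for Slc7a7, and since the strand setting of the counting is not given, its reads cannot be told from those of Oxa1l. Slc7a15 measured 0, 0.269, 0.142, 0.0605 and 0.118 CPM before differentiation and 1.58, 1.6, 0.792, 1.89 and 1.48 CPM on day 6, on 11 counts in all before and 129 on day 6 (log2 fold change 3.54, SE 0.469, adjusted p = 1.65e-06, edgeR; 4.49 without replicates 2 and 3 before differentiation).

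Promoters of Slc7a11, Slc1a4 and Slc3a2 are shown because these genes are among those that differ most between the day 6 libraries and because ATF4 is known to act on genes of this kind. The choice was not made by spread alone, since Slc6a9 and Slc7a1 varied more over day 6 than Slc1a4 and are not shown. From RefSeq (GRCm38.p6), 250 bases before to 50 bases after a gene's start were taken, and 44 of the 61 genes were matched in that table, Slc7a5 not among them. Capitals mark TGATGNAA on either strand, the letters of the composite site that C/EBP and ATF factors share. The sequences run 5′ to 3′ along the gene's own strand, which is the minus strand for Slc7a11 (chr3:50443564-50443863), Slc1a4 (chr11:20332664-20332963) and Slc3a2 (chr19:8713848-8714147). The start used for Slc7a11 and Slc1a4 is the 5′ end of the gene's span in the counted annotation, while that of Slc3a2 lies 9472 bases inside its span, so other starts of Slc3a2 are not covered.
Slc7a11: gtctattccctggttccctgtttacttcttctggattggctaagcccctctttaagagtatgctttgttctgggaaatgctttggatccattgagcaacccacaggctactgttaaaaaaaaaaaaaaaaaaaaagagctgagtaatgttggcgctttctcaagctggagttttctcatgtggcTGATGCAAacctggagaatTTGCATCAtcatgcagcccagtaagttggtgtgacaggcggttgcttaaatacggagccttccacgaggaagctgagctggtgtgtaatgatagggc
Slc1a4: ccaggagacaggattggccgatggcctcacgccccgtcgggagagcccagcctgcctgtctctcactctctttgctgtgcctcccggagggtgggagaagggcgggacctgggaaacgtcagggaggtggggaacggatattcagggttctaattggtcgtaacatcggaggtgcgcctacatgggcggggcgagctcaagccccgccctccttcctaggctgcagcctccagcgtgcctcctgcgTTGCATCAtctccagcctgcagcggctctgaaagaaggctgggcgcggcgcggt
Slc3a2: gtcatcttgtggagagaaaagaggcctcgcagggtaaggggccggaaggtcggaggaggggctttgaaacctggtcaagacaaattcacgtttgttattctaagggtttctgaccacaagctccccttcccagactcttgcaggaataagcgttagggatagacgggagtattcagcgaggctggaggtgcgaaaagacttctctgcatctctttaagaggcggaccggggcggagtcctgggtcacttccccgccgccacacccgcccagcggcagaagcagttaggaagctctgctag
The Slc7a11 window holds 2 matches, whose first bases lie 66 and 47 bases upstream of the start, and the Slc1a4 window holds 1, which begins 4 bases upstream. The Slc3a2 window holds 0, which says only that these letters are not in this window. Of all 32851 promoters in the table, 3.97% hold at least 1 match and 0.0700% hold 2 or more. Matches were found in 4 of 65 promoters of the transporter families (6.15%), which belong to Slc1a4, Slc7a7 and Slc7a11. The promoters of Slc6a9 and Slc7a1 held no match. The letters CAGCTG, an E-box of the kind that MyoD and myogenin bind, were in 13 of 65 promoters of the families (20%) and in 16.3% of all. The letters TGACNNNGC, the core of the antioxidant response element, were in 10 of 65 (15.4%) and in 12.4% of all. A match is a description and not a bound site.

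Among the cationic amino acid carriers, CAT-1 fell and CAT-2 rose. Slc7a1 (CAT-1, chr5:148327410-148399904), the widespread arginine and lysine carrier, measured 213, 221, 224, 218 and 197 CPM before differentiation. On day 6 it measured 86.7, 105, 186, 178 and 156 CPM, lower in every library and lowest in replicates 1 and 2 (215 ± 10.6 CPM before and 142 ± 44.4 CPM on day 6; log2 fold change -0.59, SE 0.208, adjusted p = 0.026, edgeR). The call was lost without day 6 replicate 2 (-0.48, adjusted p = 0.0610) and without replicates 2 and 3 before differentiation (-0.56, adjusted p = 0.0928).

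Slc7a2 (CAT-2, chr8:40862396-40922308), an arginine carrier known in muscle, liver and activated macrophages, measured 5.54, 6.25, 5.62, 5.38 and 3.49 CPM before differentiation. It measured 89.2, 89.9, 79.4, 81 and 75.9 CPM on day 6, 15.7-fold higher, with a narrow spread in which replicates 1 and 2 lay highest (5.26 ± 1.04 CPM before and 83.1 ± 6.19 CPM on day 6; log2 fold change 3.97, SE 0.106, adjusted p = 7.14e-16, edgeR). Slc7a4, a relative of the CAT carriers, measured 0.438, 0.862, 0.567, 0.968 and 0.533 CPM before differentiation and 1.53, 1.71, 1.34, 1.34 and 1.48 CPM on day 6 (log2 fold change 1.14, SE 0.282, adjusted p = 0.00127, edgeR). Its span overlaps P2rx6 on the opposite strand, which held 933 counts against 191. The 3 tested genes of this class changed, as did 79.8% of all genes tested.

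Of the Slc43 family, all 3 genes changed, 2 higher and 1 lower, where 79.8% of all genes tested did. Slc43a2 (LAT4), a facilitative carrier of branched-chain amino acids, phenylalanine and methionine, measured 10.5, 8.89, 12.1, 11.7 and 12.9 CPM before differentiation and 39.8, 46.8, 37.9, 41.5 and 38.1 CPM on day 6 (11.2 ± 1.57 CPM before and 40.8 ± 3.67 CPM on day 6; log2 fold change 1.86, SE 0.0967, adjusted p = 4.05e-12, edgeR). Slc43a1 (LAT3), a carrier of like substrates, was higher as well (log2 fold change 0.95, SE 0.177, adjusted p = 8.91e-05, edgeR). Slc43a3, which carries purine nucleobases and not amino acids, had the largest fall of the families.

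Slc43a3 measured 29.9, 31.5, 33, 33 and 28.7 CPM before differentiation and 4.8, 5.66, 6.58, 5.74 and 7.62 CPM on day 6 (31.2 ± 1.9 CPM before and 6.08 ± 1.07 CPM on day 6; log2 fold change -2.37, SE 0.106, adjusted p = 4.61e-13, edgeR). The conditions did not overlap for the 3 genes, as was so for 69.1% of all genes tested.

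Of the Slc1 family, the glutamate and aspartate carrier EAAT1 rose, the glutamine carrier ASCT2 fell and ASCT1 did not pass. Slc1a3 (EAAT1, chr15:8634124-8710764) measured 4.6, 2.53, 2.13, 1.27 and 2.01 CPM before differentiation and 40.8, 35.8, 44.3, 44.9 and 45.3 CPM on day 6, 16.7-fold higher (2.51 ± 1.26 CPM before and 42.2 ± 4.01 CPM on day 6; log2 fold change 4.06, SE 0.217, adjusted p = 2.87e-09, edgeR). Slc1a5 (ASCT2) measured 37.7, 43.6, 37.2, 42.9 and 40.8 CPM before differentiation and 11.7, 13.8, 19.7, 22.2 and 18.9 CPM on day 6 (40.4 ± 2.93 CPM before and 17.3 ± 4.35 CPM on day 6; log2 fold change -1.23, SE 0.145, adjusted p = 3.37e-06, edgeR). It was lower in all 5 day 6 libraries, and lowest in replicates 1 and 2.

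Slc1a4 (ASCT1), a carrier of alanine, serine, cysteine and threonine, measured 65.4, 61, 65, 66.3 and 69.95 CPM before differentiation and 51.5, 51.5, 91.5, 87.1 and 91.5 CPM on day 6 (65.5 ± 3.21 CPM before and 74.6 ± 21.2 CPM on day 6; log2 fold change 0.18, SE 0.186, adjusted p = 0.382, edgeR). As for Slc3a2 and Slc7a5, replicates 1 and 2 lay below and replicates 3, 4 and 5 above all libraries before differentiation. It was higher without day 6 replicates 1 and 2 (0.47, adjusted p = 1.09e-09) and lower without replicates 3, 4 and 5 (-0.30, adjusted p = 0.000197).

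Of the sodium-coupled neutral carriers of the Slc38 family, 3 of 6 tested genes were higher, 2 were lower and 1 did not pass. Among all genes tested, 40.1% were higher and 39.7% lower. Slc38a2 (SNAT2, chr15:96687394-96699698), a system A carrier of alanine, serine and glutamine, measured 593, 585, 607, 616 and 595 CPM before differentiation and 703, 668, 689.6, 654 and 717 CPM on day 6 (599 ± 12 CPM before and 686 ± 25.8 CPM on day 6; log2 fold change 0.20, SE 0.0434, adjusted p = 4.88e-04, edgeR). Its day 6 libraries were all above those before, and replicates 1 and 2 did not stand apart. Slc38a1 (SNAT1), its system A relative, measured 182, 179.8, 188, 182 and 170.2 CPM before differentiation and 90.1, 92, 108, 107 and 113 CPM on day 6 (180.3 ± 6.44 CPM before and 102 ± 10.3 CPM on day 6; log2 fold change -0.82, SE 0.0623, adjusted p = 8.76e-10, edgeR).

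The lysosomal members rose. Slc38a7 (SNAT7), which exports glutamine from lysosomes, measured 52.6, 52.3, 54.6, 55.6 and 52.2 CPM before differentiation and 69.8, 71.2, 93.4, 93.6 and 95.5 CPM on day 6 (log2 fold change 0.66, SE 0.0867, adjusted p = 3.11e-06, edgeR). Slc38a9 (SNAT9), the lysosomal arginine sensor upstream of mTORC1, measured 12, 11.1, 8.83, 10.3 and 11.7 CPM before differentiation and 25.9, 27.7, 31.3, 29.97 and 30.9 CPM on day 6 (log2 fold change 1.44, SE 0.0936, adjusted p = 1.04e-10, edgeR). For both genes replicates 1 and 2 were the lowest of day 6 and still above every library before differentiation.

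Slc38a10 measured 129, 124, 139, 139 and 146 CPM before differentiation and 133, 133, 147, 147 and 149.8 CPM on day 6, with overlapping conditions (log2 fold change 0.07, SE 0.0552, adjusted p = 0.235, edgeR). It passed without day 6 replicates 1 and 2, at 0.15 (adjusted p = 0.00804). Slc38a6 was lower (log2 fold change -0.43, SE 0.0901, adjusted p = 2.94e-04, edgeR).

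Both tested proton-coupled carriers of the Slc36 family, which occur on lysosomes and other membranes, were slightly higher. A call of higher was given to 40.1% of all genes tested. Slc36a1 (PAT1) measured 23.1, 23.2, 23.1, 21.9 and 21.7 CPM before differentiation and 32.2, 33.4, 33.4, 36.9 and 35.8 CPM on day 6 (log2 fold change 0.60, SE 0.0655, adjusted p = 1.32e-07, edgeR). Slc36a4 (PAT4) measured 23.4, 22.4, 21.1, 23.3 and 21.7 CPM before differentiation and 26.8, 24.9, 25.2, 25.8 and 25.3 CPM on day 6 (log2 fold change 0.19, SE 0.0665, adjusted p = 0.0126, edgeR). The call for Slc36a4 was lost without replicates 2 and 3 before differentiation (0.16, adjusted p = 0.0937).

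Of the 18 Slc6 genes 6 were tested, and these rose by more than 1 log2, as did 18.1% of all genes tested. Slc6a2, Slc6a7 and Slc6a19 among them passed the filter on low counts only through day 6, where they are high, so nothing is drawn from that count. Slc6a6 (TauT, chr6:91684067-91759063), which carries taurine, an osmolyte that muscle holds at high levels, measured 412, 414, 441, 425 and 404 CPM before differentiation. On day 6 it measured 1377, 1362, 956, 980.03 and 1049 CPM, and here replicates 1 and 2 were the highest (419 ± 14.5 CPM before and 1145 ± 208 CPM on day 6; log2 fold change 1.45, SE 0.104, adjusted p = 3.41e-08, edgeR). Slc6a9 (GLYT1), a glycine carrier, had the other order.

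Slc6a9 measured 12.4, 12.3, 12.8, 11.2 and 13.4 CPM before differentiation and 26.1, 28.2, 53.2, 53 and 48.3 CPM on day 6, lowest in replicates 1 and 2 (12.4 ± 0.804 CPM before and 41.8 ± 13.5 CPM on day 6; log2 fold change 1.74, SE 0.224, adjusted p = 3.66e-05, edgeR). Its span overlaps B4galt2 on the opposite strand, which held 7950 counts against 4684. Slc6a19 (B0AT1, chr13:73679745-73704865), the neutral amino acid carrier best known from intestine and kidney, had no count in the 5 libraries before differentiation and measured 6.73, 6.94, 16.1, 15 and 14.5 CPM on day 6. Its 999 day 6 counts were at least 349-fold higher than a floor of 3 counts over the 5 libraries before differentiation (adjusted p = 2.04e-05, edgeR), and replicates 1 and 2 were again the lowest.

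Slc6a2 (NET), which carries noradrenaline and not an amino acid, measured 0.110, 0, 0.142, 0 and 0 CPM before differentiation and 15.9, 14, 15.7, 15.4 and 13.3 CPM on day 6 (log2 fold change 7.92, SE 0.291, adjusted p = 2.87e-14, edgeR). Only 5 counts stood behind the level before differentiation, against 1301 on day 6, and without replicate 3 before differentiation the log2 fold change was 8.70. The vesicular neutral amino acid carrier Slc6a17 (NTT4) measured 4.06, 3.39, 5.86, 6.65 and 4.98 CPM before differentiation and 10.1, 11.2, 13.6, 11.6 and 14 CPM on day 6 (log2 fold change 1.28, SE 0.161, adjusted p = 9.27e-07, edgeR). The proline carrier Slc6a7 (PROT) measured 0.110, 0.162, 0.189, 0.0605 and 0 CPM before differentiation and 1.53, 1.76, 2.13, 1.22 and 1.61 CPM on day 6, on 10 and 144 counts (log2 fold change 3.84, SE 0.426, adjusted p = 1.72e-07, edgeR; 4.66 without replicates 2 and 3 before differentiation). Replicates 1 and 2 were the lowest of day 6 for Slc6a17, and were not both at the same end of the day 6 range for Slc6a2 or Slc6a7.

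Slc7a6os, the gene that is no transporter, measured 30.3, 28.3, 29.3, 31.3 and 25.5 CPM before differentiation and 19.9, 20.7, 19.3, 16.4 and 15.9 CPM on day 6 (log2 fold change -0.65, SE 0.0881, adjusted p = 2.30e-06, edgeR). Its fitted fall was as large as that of Slc7a6, from which it is separated by 1733 bases. The spans of both genes do not overlap in the annotation.

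**Figure D2:**
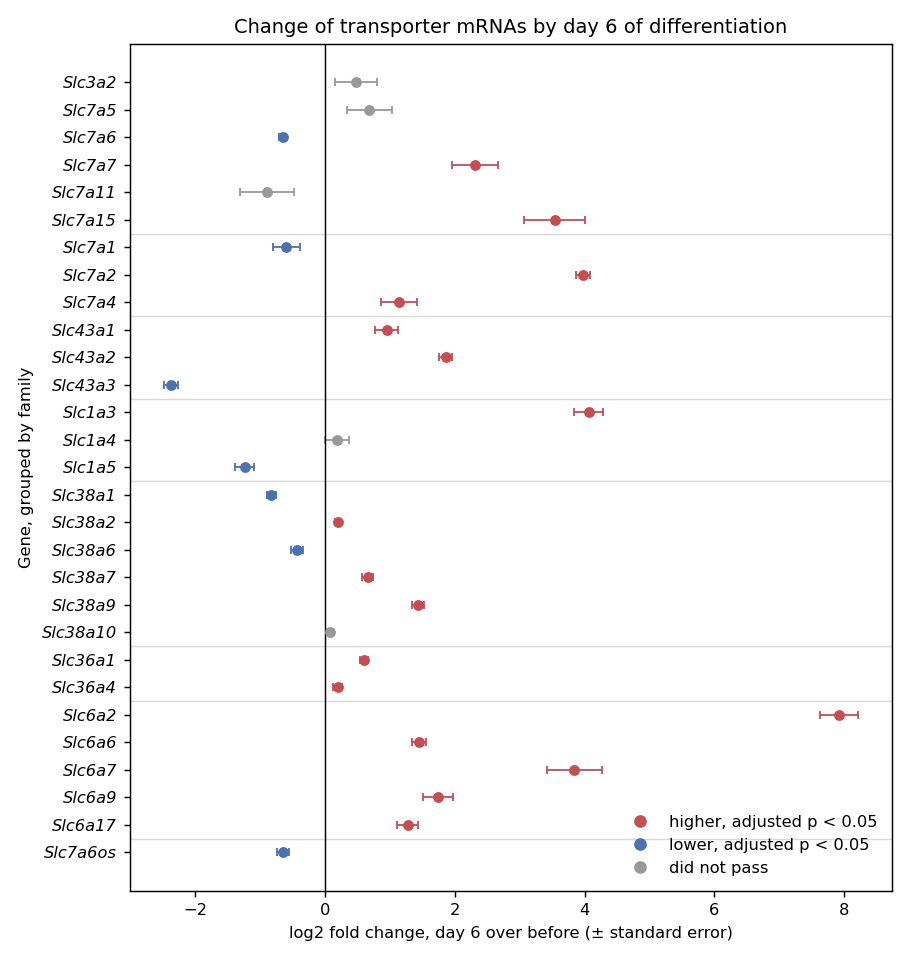
Log2 fold change, day 6 over before differentiation, with its standard error, for 29 tested genes grouped by class and coloured by call. Slc6a19 is not drawn because it had no count before differentiation, and all drawn Slc6 genes lie above 1 log2.

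The remaining 31 genes were not tested. No read was counted for 11 of them in any library, 13 had 1 to 9 counts over all libraries and 7 had at least 10, the highest having 89. Those 7 were Slc3a1 (rBAT, the other heavy chain, 23 counts before and 10 on day 6), Slc7a8 (LAT2, 3 and 17), Slc7a3 (CAT-3, 34 and 29), Slc1a6 (EAAT4, 1 and 28), Slc38a4 (SNAT4, 25 and 10), Slc6a15 (74 and 15) and Slc6a20b (9 and 27). DESeq2, and edgeR with no filter, called Slc1a6 and Slc7a8 higher and Slc6a15 lower. With the main filter Slc6a15 was also called without replicate 4 before differentiation, without any single day 6 replicate and without either day 6 set.

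The transporters formed a steeply graded set. After division by gene length, which allows levels to be compared between genes, the level summed over 60 genes was 502 ± 10.1 CPM per kb before differentiation and 713 ± 76.9 CPM per kb on day 6 (SD, n = 5). The 4 most abundant genes, Slc38a2, Slc6a6, Slc3a2 and Slc7a5, held 63.7% of it before and 72.7% on day 6. These sums are given with no test.

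Slc38a2 held 25.8% of the summed level before differentiation and 21.0% on day 6. Slc6a6 went from 13.5 ± 0.338% to 26.7 ± 7.89% and took the first place. Its share was 35.9% and 34.7% in day 6 replicates 1 and 2, and 19.9%, 20.6% and 22.6% in replicates 3, 4 and 5. Slc7a5 and Slc3a2 together held 23.9% to 25.2% in the libraries before differentiation, 13.2% and 15.97% in day 6 replicates 1 and 2 and 33.6%, 33.4% and 28.6% in replicates 3, 4 and 5. Slc7a1 held 5.95% before and 2.73% on day 6, and Slc38a1 4.63% and 1.85%.

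**Figure D3:**
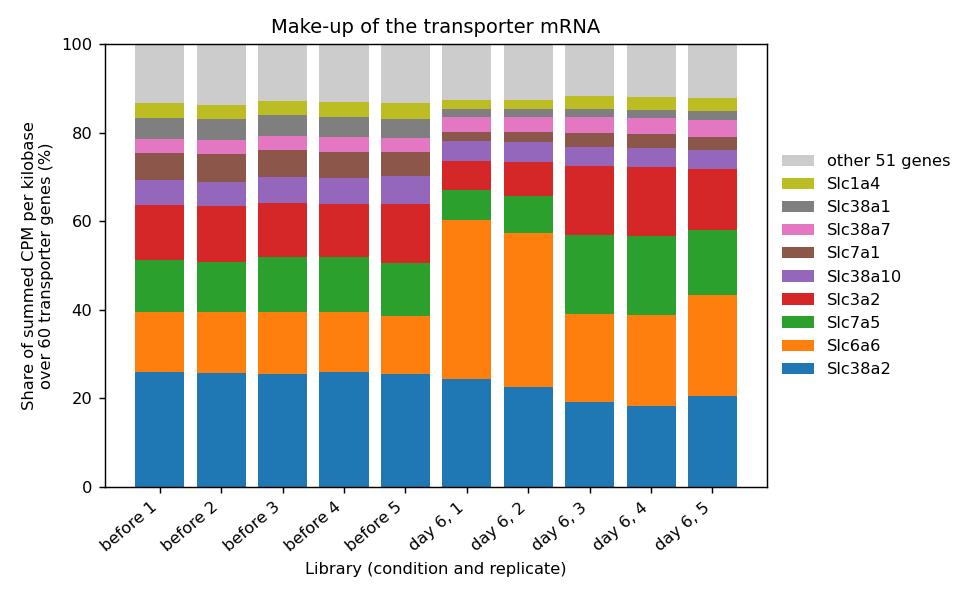
Share of the summed transporter level (CPM per kb, in percent) held by 9 genes and by the other 51 together, as 1 stacked bar per library. The Slc6a6 part is widest in day 6 replicates 1 and 2, and the Slc7a5 and Slc3a2 parts are widest in replicates 3, 4 and 5.

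Ratios within a library do not depend on its scaling, and 8 pairs of partner or alternative carriers were compared by a two-sided exact permutation test over the libraries, whose smallest p is 0.00794. Adjusted over the 8 pairs, 7 ratios passed. The pairs were chosen with earlier results known and no share over other gene pairs is given, so nothing is drawn from that count. Slc7a5 over Slc3a2 was higher on day 6 by 0.18 log2 (0.258 ± 0.114 before and 0.440 ± 0.0658 on day 6; exact p = 0.0238, adjusted 0.0317). In linear terms the counts of Slc7a5 stood at 1.11 to 1.32 times those of Slc3a2 before differentiation and 1.26 to 1.41 times on day 6. With 1 library left out, this ratio missed the threshold in 7 of 10 cases (adjusted p = 0.0635), namely without replicates 1, 2 or 5 before differentiation or without day 6 replicates 2, 3, 4 or 5. Over the same day 6 libraries Slc7a5 spanned 3.38-fold and Slc3a2 3.02-fold.

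Slc7a2 over Slc7a1 rose by 4.65 log2, from -5.37 to -0.72 (exact p = 0.00794, adjusted 0.0127). Slc1a4 over Slc1a5 rose by 1.40 log2, from 0.70 to 2.10, with the same p. Slc38a1 over Slc38a2 fell by 1.02 log2, Slc43a1 over Slc43a2 fell by 0.91 and Slc7a11 over Slc3a2 fell by 1.49, again with that p, the smallest the design allows. For each of these 5 ratios the conditions did not overlap, which is what that smallest p amounts to.

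Slc7a6 over Slc3a2 fell by 0.99 log2 (exact p = 0.0397, adjusted 0.0454), and here the 5 day 6 libraries were spread out, from a linear ratio of 0.334 and 0.274 in replicates 1 and 2 to 0.101, 0.102 and 0.132 in replicates 3, 4 and 5. It missed the threshold with any single library left out other than day 6 replicate 1, in 9 of 10 cases (adjusted p = 0.0635 to 0.0907). Slc7a8 over Slc7a5 did not pass (difference 1.49 log2, exact p = 0.0714, adjusted 0.0714) and rests on few counts of Slc7a8.

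The day 6 libraries differed among themselves more than those before differentiation. Of 21 family genes with at least 5 CPM in both conditions, 16 (76.2%) had a larger coefficient of variation (CV, SD over mean) on day 6, against 66.0% of 9489 genes of that level in the whole table. Their median CV was 6.09% before and 11.8% on day 6, and that of all such genes 6.17% and 8.15%. Day 6 replicates 1 and 2 both lay below replicates 3, 4 and 5 for 16 of the 30 tested genes (53.3%), against 22.2% of all genes tested. Both lay above for 4 (13.3%), against 22.7%.

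The widest day 6 spread was that of Slc7a11, with a CV of 59.6%, where counting error alone gives 9.05%. Slc7a5 followed at 48.3% (counting error 1.33%), Slc3a2 at 45.5% (1.56%), Slc6a9 at 32.3% (3.76%), Slc7a1 at 31.15% (2.03%), Slc1a4 at 28.4% (2.81%) and Slc1a5 at 25.2% (5.82%). The steadiest were Slc36a4 at 2.96%, below its counting error of 4.73%, and Slc38a2 at 3.77% (0.914%). The carriers thus held both the widest and some of the narrowest spreads on day 6.

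**Figure D4:**
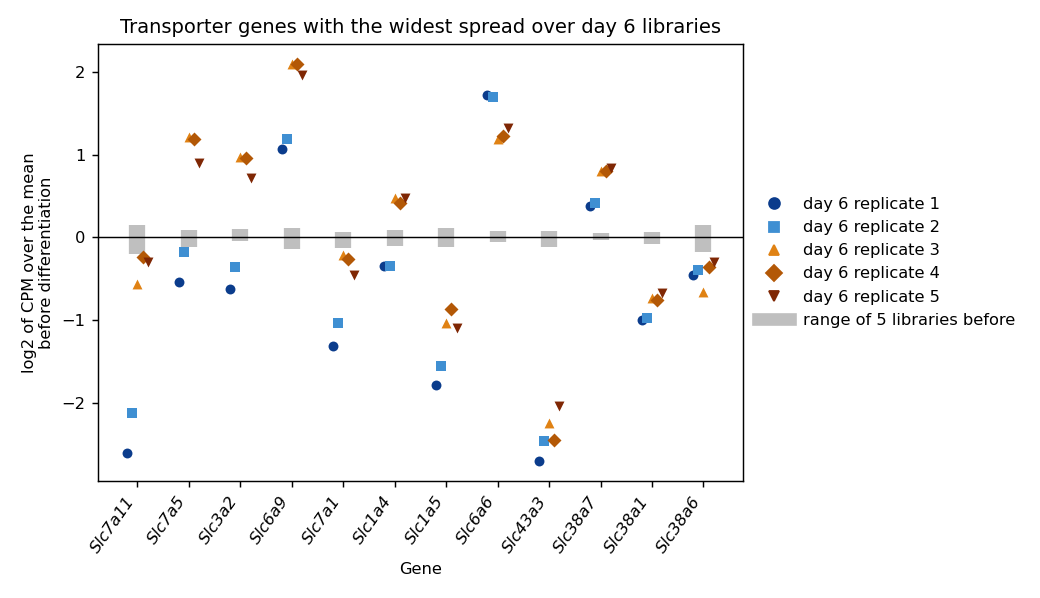
Level of 12 transporter genes in each day 6 library, relative to the gene's mean before differentiation, on a log2 axis, with genes ordered by their day 6 CV and grey bands for the range of the libraries before differentiation. Replicates 1 and 2 lie below replicates 3, 4 and 5 for Slc7a11, Slc7a5, Slc3a2, Slc6a9, Slc7a1, Slc1a4, Slc1a5, Slc43a3, Slc38a7 and Slc38a1. For Slc6a6 they lie above, and for Slc38a6 the order is mixed.

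Most genes of a list for the response to amino acid shortage, written with earlier results of these data known, showed the same order. Of 25 tested genes of this response, day 6 replicates 1 and 2 were the lowest for 22 and the highest for 0, against 22.2% and 22.7% of all genes tested. Asns, which codes for asparagine synthetase, measured 184, 173, 176, 180.1 and 179.9 CPM before differentiation and 72.7, 81.2, 255, 266 and 207 CPM on day 6. Trib3, a pseudokinase induced by ATF4 and chosen after its values were seen, measured 16.6, 17.9, 16.1, 18.5 and 17.6 CPM before differentiation and 8.11, 9.72, 83.8, 84.2 and 63.4 CPM on day 6. Its change did not pass the test (log2 fold change 1.51, SE 0.677, adjusted p = 0.0673, edgeR). As a list, 7 of the 25 genes were higher on day 6, 6 lower and 12 did not pass, so 52% changed against 79.8% of all genes tested, with a median log2 fold change of 0.02.

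Atf4 itself measured 407, 420.3, 419, 426 and 462 CPM before differentiation and 337, 339.5, 527, 499.8 and 460.2 CPM on day 6 (log2 fold change 0.02, SE 0.127, adjusted p = 0.893, edgeR). Psat1, a serine synthesis enzyme and the other most abundant gene of the list, did not pass (-0.30 log2, adjusted p = 0.221). The largest changes were the hormone genes Fgf21, higher (7.48, adjusted p = 9.22e-07, on 22 counts before differentiation), and Gdf15, lower (-1.45, adjusted p = 0.0193), whose call was lost without replicates 2 and 3 before differentiation (adjusted p = 0.0636). Fgf21 stood at 8.2 without replicate 3 before differentiation and at 6.73 without day 6 replicates 3, 4 and 5. Gdf15 stood at -0.87 without day 6 replicates 1 and 2 and at -3.11 without replicates 3, 4 and 5. Atf4 was higher by 0.23 log2 (adjusted p = 3.20e-05) and Asns by 0.46 (adjusted p = 8.85e-08) without day 6 replicates 1 and 2. When day 6 replicates 3, 4 and 5 were left out, Atf4 was at -0.29 (adjusted p = 1.21e-05), Asns at -1.17 (adjusted p = 9.32e-17) and Psat1 at -0.86 (adjusted p = 1.57e-15). Without day 6 replicates 1 and 2, 17 of the genes were higher, and without replicates 3, 4 and 5, 17 were lower. These counts restate the order of the libraries given above. The shares of all genes in the same fits are not given, so nothing more is drawn from them. Muscle markers moved with the same split of libraries, with replicates 1 and 2 the highest of day 6 for 6 of 9, among them Myh3, an embryonic myosin heavy chain, at 5485, 5683, 3504, 3516 and 3210 CPM. What part either gene group has in the spread of the transporters was not tested.

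**Figure D5:**
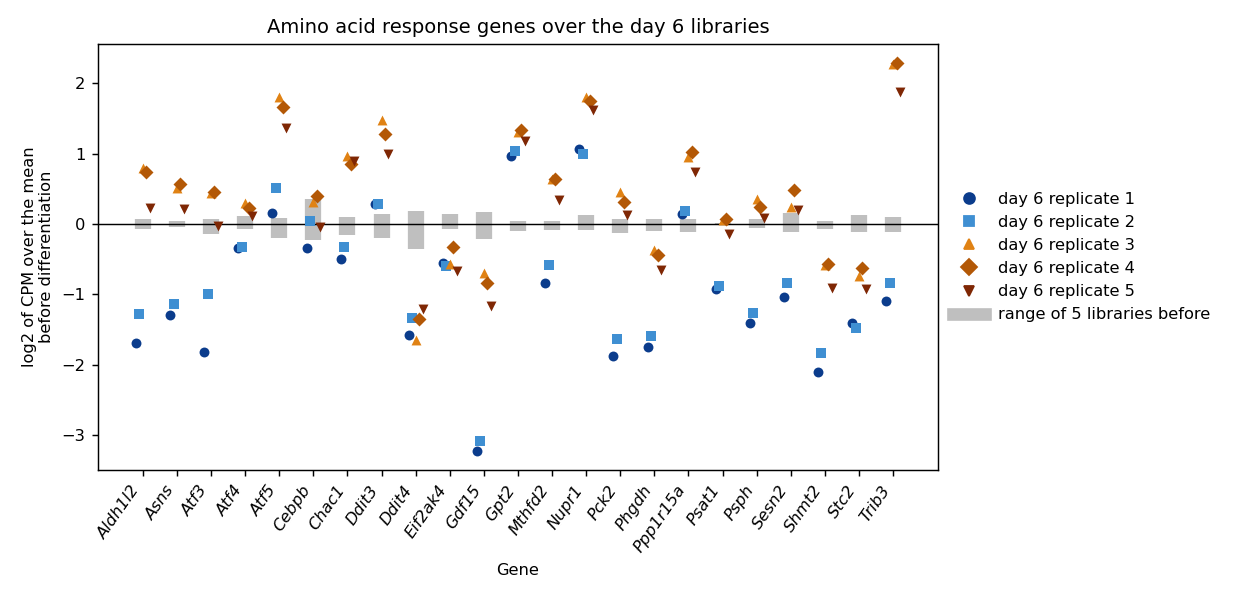
Level of 23 amino acid response genes with at least 5 CPM in both conditions in each day 6 library, relative to the gene's mean before differentiation, on a log2 axis, with grey bands for the range before differentiation. Replicates 1 and 2 lie below replicates 3, 4 and 5 for nearly all, and Trib3 shows the widest gap.

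Other genes that handle amino acids were read from lists. Of 37 tested genes of mTORC1 amino acid sensing, 23 were higher on day 6, 6 lower and 8 did not pass (median log2 fold change 0.31). The 29 that changed make 78.4%, near the 79.8% of all genes tested, with 62.2% higher against 40.1% and 16.2% lower against 39.7%. The largest rise was that of Gatsl2, the older symbol of Castor2. It measured 39.96, 39.4, 51.1, 42.2 and 41.1 CPM before differentiation and 163, 165, 116, 113 and 116 CPM on day 6 (log2 fold change 1.65, SE 0.134, adjusted p = 4.06e-07, edgeR). Its relative Gatsl3, named here in addition, was lower (log2 fold change -0.42, SE 0.176, adjusted p = 0.0382, edgeR). The largest fall was that of Seh1l, a part of the GATOR2 complex (-0.65, adjusted p = 4.42e-10). Per kb of gene length the most abundant genes were Sec13, also of GATOR2 (-0.30, adjusted p = 1.23e-05), and Eif4ebp1, a target of mTORC1 (-0.16, adjusted p = 0.472). Eif4ebp1 was higher without day 6 replicates 1 and 2 (0.14, adjusted p = 0.0230) and lower without replicates 3, 4 and 5 (-0.68, adjusted p = 3.42e-10).

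Of 19 tested carriers of amino acids from other families, 12 were higher, 4 lower and 3 did not pass (median 0.63). That is 84.2% changed against 79.8% of all genes tested, 63.2% higher against 40.1% and 21.1% lower against 39.7%. Sfxn1, a mitochondrial serine carrier, measured 70.2, 69.2, 70.3, 69.98 and 71.5 CPM before differentiation and 15.3, 17.2, 19, 20.9 and 17.9 CPM on day 6, the largest fall (log2 fold change -1.96, SE 0.0721, adjusted p = 2.86e-14, edgeR). The lysosomal histidine and peptide carrier Slc15a4 was higher by 0.69 log2 (adjusted p = 3.64e-08). Sfxn3, a relative of Sfxn1, was higher by 0.67 log2 (adjusted p = 9.89e-07).

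Of 23 tested genes of branched-chain amino acid breakdown, 20 were higher, 1 lower and 2 did not pass (median 0.58), against 40.1% higher among all genes tested. The lower gene was Bcat1, the cytosolic aminotransferase that takes the amino group from leucine, isoleucine and valine. It measured 192, 189, 191, 194 and 191 CPM before differentiation and 9.69, 12.7, 40.1, 41.6 and 36.5 CPM on day 6, lowest in replicates 1 and 2 (log2 fold change -2.78, SE 0.398, adjusted p = 1.65e-04, edgeR; -4.06 without day 6 replicates 3, 4 and 5). The largest rise was that of Aldh6a1, a mitochondrial dehydrogenase of valine breakdown (2.29, adjusted p = 1.56e-12), while the abundant Dld (0.49, adjusted p = 4.57e-08) and Hsd17b10 (0.23, adjusted p = 0.00512) rose less.

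Of 20 tested enzymes of glutamine, glutamate and proline, 6 were higher, 10 lower and 4 did not pass (median -0.23). The 16 that changed make 80%, near the 79.8% of all genes tested, with 30% higher against 40.1% and 50% lower against 39.7%. Glud1, glutamate dehydrogenase, was lower by a small step (-0.20, adjusted p = 0.00254), and Asns did not pass (-0.02, adjusted p = 0.96). The largest changes were in low genes, with Gfpt2, an enzyme of hexosamine synthesis, at 2.76 (adjusted p = 1.72e-05) and the proline dehydrogenase gene Prodh at -1.67 (adjusted p = 6.63e-06). No list was given a test of its own.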

How the data were processed

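The 10 libraries were grouped by the sample labels, and day 6 comes from the study's text. The authors trimmed reads with Trimmomatic, used STAR 2.5 with mm10 for mapping, and took gene counts with HTSeq 0.6.1. The deposited counts are raw and were used as they are. The authors' FPKM values equal counts over length and library total, which was checked, and were not used. Strand and overlap settings are not given in the sources used here, and the labels and the methods name different versions of the library kit, so reads of overlapping genes cannot be told apart. The gene lengths the authors gave were used for CPM per kb.

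Fold changes and p-values came from edgeR 4.0.16 (R 4.3.3; filterByExpr by group, TMM factors, robust quasi-likelihood fit, condition alone), adjusted by Benjamini-Hochberg over 13085 genes, threshold 0.05. The study used DESeq2, which served here (1.42.0) as an alternative. Standard errors divide the size of the log2 fold change by the root of the F statistic, and can be too small where counts are few. Within-library ratios used 0.5 count added and SciPy 1.17.1 for exact tests. No 2 libraries agreed within counting noise. The fit was also run on simulated counts with the same dispersion for every gene and no split of libraries. That run does not cover genes whose day 6 libraries split.

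The genes, lists, tests and libraries left out were chosen with earlier results of these data known. Full values are given for genes that reached 20 CPM on average in either condition, or that changed by more than 1 log2 and reached 1 CPM. From each other list the 2 most abundant genes per kb and the largest change in each direction are named, apart from a gene that is not reported here.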

Additional observations from a re-analysis of the deposited data

Results flagged for a closer look

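Before differentiation, Slc3a2 stood apart in replicate 5, at 188 CPM against 171 to 175 CPM in the other libraries. The gap to the nearest library was 0.785 of the range, above the limit of 0.71 for 5 libraries. This was 1 of 54 groups of 5 examined, and chance marks about 1 in 20.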

How the results depend on the processing

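Library totals, thinned counts, upper-quartile or relative log expression factors and leaving out Yam1 and Lars2 each gave the same 25 calls in the transporter families. DESeq2 gave 28 and no filter 29, with all 25 shared, while a filter of at least 5 CPM gave 21, since 5 low genes were then not tested, and Slc38a10 passed (0.12, adjusted p = 0.0484). With 1 library left out, 18 to 20 genes were higher and 7 to 9 lower. The replicate numbers did not pair the libraries (correlations of deviations -0.0452 to 0.00996 over 5 pairs, and 0 libraries before differentiation closest to their own number). The fit with the number as a block called 26, Slc7a11 being added at -1.04 (adjusted p = 0.0356), and put Atf4 at -0.00423.

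Without day 6 replicates 3, 4 and 5, 12 transporter genes were lower, among them Slc6a15, which was not tested in the fit of all libraries. The log2 fold changes of Slc3a2, Slc7a5, Slc1a4 and Atf4 turned to -0.44, -0.31, -0.30 and -0.29, and 17 amino acid response genes were lower. Without day 6 replicates 1 and 2, 17 of the response genes were higher and Eif4ebp1, Psat1 and Asns turned to 0.14, 0.015 and 0.46. Shares of all genes in these fits are not given and the sets follow the known split, so nothing is drawn from these counts. Asns, near 0 in the fit of all libraries, was 0.0249 at the 5 CPM filter, 0.000916 in thinned counts and -0.22 to 0.18 with 1 library left out, and Atf4 was -0.00537 without replicates 2 and 3 before differentiation and -0.0577 to 0.114 with 1 left out. Past 1 log2, 2370 of all genes were higher and 1925 lower, 2 transporter genes were lower, mTORC1 sensing had 3 higher and 0 lower (0 also at an unadjusted p under 0.05 in edgeR and in DESeq2), other carriers 4 higher, glutamine enzymes 6 lower and branched-chain breakdown 5 higher. At the 5 CPM filter, 3 mTORC1 sensing genes and 2 other carriers were lower, fewer genes being tested. The count with a larger day 6 CV was 10 of 12 at 20 CPM. With 1 library left out, Slc7a5 over Slc3a2 differed by 0.157 to 0.217 log2 and Slc7a6 over Slc3a2 by -1.24 to -0.81, with the call lost in 7 of 10 and 9 of 10 cases. The cause of these changes was not tested. Depth limits what can be said of the genes with few counts.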
